A study of Mus musculus with 148 samples.

Results

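DNA modification was measured along the small intestine of mice that drank lactose-free milk. These were the 32 of 148 samples of the series that carried the age label postnatal day 90 (P90) and the milk label lactose-free, and they came from 5 gut segments: segment 1 (6 samples), segment 3 (6), segment 4 (7), segment 7 (6) and segment 8 (7), numbered from the proximal to the distal end. By the dissection in the labels segment 3 is the last of the duodenum, whereas the article's text counts it as jejunum; segment 1 is duodenum, segment 4 jejunum and segments 7 and 8 ileum in both. The mice were C57BL/6NCrl in the breeding protocol and carried the strain label C57BL/6MCrl. From day 30 they drank 2% lactose-free milk instead of water for 60 days, with ordinary food. The 35 lactose-fed P90 samples, used for a comparison at the end, came from mice given 2% milk with lactose and added sucrose over the same days, and the 71 P60 samples came from 60-day-old adults with no milk label. Enterocytes were taken off the villi of each segment with a chelating agent, so the cell type rests on that isolation and cannot be checked against marker genes in DNA data. The labels did not say which samples came from the same mouse.

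Lactase, the product of Lct, splits the milk sugar lactose at the surface of enterocytes, the absorbing cells of the villi. Its expression falls after weaning in most mammals and differs along the gut, with the ends of the small intestine making the least. Mcm6, a subunit of the helicase that unwinds DNA for replication, lies next to Lct and holds, in its introns, sequence variants linked to lactase persistence in humans. Methylation of cytosine in CpG pairs is often low where regulatory elements are in use. Bisulfite sequencing, as used here, does not separate methylation from other cytosine modifications, so the measured quantity is the percent of reads with a modified cytosine. The probes covered Lct, Mcm6 and their flanks, and also regions on other autosomes, among them many control regions of imprinted genes. In these, 1 parental copy is methylated and the other is not, so levels in the middle of the range are usual.

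The sequences below show where the largest or best supported differences between segments 3 and 8 lay. They are the reference plus strand (RefSeq, GRCm38.p6), written 5′ to 3′, and capitals mark CpGs of the described region that were covered in every sample. The first, at chr1:128338083-128338205, runs on the plus strand from intron 13 of Mcm6 into exon 13. Mcm6 lies on the minus strand, so the intron bases shown are from the start of intron 13. The next is in intron 2 of Lct, at chr1:128314509-128314559, and the third lies just before the longest basic Plagl1 transcript, at chr10:13089845-13089964. The fourth, from intron 16 of Trappc9 at chr15:72801561-72801851, is shown because its CpGs went the other way. The fifth and sixth hold the lead CpG of Lct exon 1 (chr1:128328045-128328074) and of Mcm6 intron 6 (chr1:128348607-128348636), and the last holds that of Mest intron 1 (chr6:30739951-30739980).
Mcm6 exon 13: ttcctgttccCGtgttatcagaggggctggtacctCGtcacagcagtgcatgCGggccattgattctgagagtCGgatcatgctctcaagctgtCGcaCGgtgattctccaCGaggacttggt
Lct intron 2: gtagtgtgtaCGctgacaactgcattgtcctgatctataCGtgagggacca
Plagl1 upstream region: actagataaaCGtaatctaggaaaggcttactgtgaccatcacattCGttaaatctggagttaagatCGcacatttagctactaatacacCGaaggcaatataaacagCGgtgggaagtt
Trappc9 intron 16: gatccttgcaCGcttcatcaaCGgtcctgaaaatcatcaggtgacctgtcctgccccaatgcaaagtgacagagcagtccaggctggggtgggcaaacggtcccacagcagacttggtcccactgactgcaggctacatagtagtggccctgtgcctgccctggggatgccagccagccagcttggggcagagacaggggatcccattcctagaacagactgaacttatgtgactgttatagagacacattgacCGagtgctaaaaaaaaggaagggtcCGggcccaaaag
Lct exon 1: taacctggctggccCGaagactgctgaagt
Mcm6 intron 6: acttgggaggtcaaCGttgtgatttattta
Mest intron 1: cgtgccttatttctCGcctccaggataaat

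The 32 libraries held 38564889 to 200558535 cytosine read calls (median 83801849.5), and each library had a median of 873 to 6653 reads per CpG of the Lct–Mcm6 locus. Cytosines outside CpG were read as modified in 0.429% to 0.637% of calls. Segments 1 and 4 were sequenced on lanes 3 and 5, while segments 7 and 8 were on lanes 1, 6 and 7, and segment 3 shared these except for 1 sample on lane 3. Lane and segment therefore cannot be told apart when segments 1 or 4 are compared with segments 3, 7 or 8. Within segments 1 and 4, the lane 5 samples had the lower mean in 25 and 21 of the 29 regions defined below, with median differences of -3.72 and -3.95 percentage points. The gap was wider in some regions with large segment differences. At Mcm6 exon 13–intron 13 the lane 3 and lane 5 means were 48.38% and 37.85% in segment 1. In segment 4 they were 57.01% and 38.97%. In segment 3, replicate 4 (lane 7) stood apart, being the sample nearest to the segment 8 mean in 19 of 29 regions, and replicate 5 (lane 1) was nearest in 5. The labels and files do not settle whether a sample was exchanged or its dissection mixed. The segment 3 means and SDs therefore hold replicates 4 and 5 as labelled, and the main results are also given without them. They were picked for values near segment 8, replicate 5 in some regions only. Leaving them out therefore tends by construction to widen the difference between segments 3 and 8. Counts and p-values without them show only how far the results depended on them. No pair of samples of the same segment was alike within sampling noise. Because no label tied samples to separate mice, p-values measure the spread between these samples.

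The question was whether modification at the locus changed from the proximal to the distal gut in mice whose diet held no lactose after weaning. The mean over all covered CpGs of the locus was 77.8% ± 1.22 (SD, n = 6) in segment 1, 78.3% ± 0.928 (n = 6) in segment 3, 78.97% ± 0.826 (n = 7) in segment 4, 80.01% ± 0.611 (n = 6) in segment 7 and 80.6% ± 0.639 (n = 7) in segment 8. Larger differences lay in short stretches. These were taken from the P60 samples, as clusters of at least 3 CpGs within 500 bp of each other that differed among the 9 segments of the gut. Of 31 such regions, 29 held at least 3 CpGs covered in every sample, 14 at the locus and 15 elsewhere. Counts of CpGs in regions and tests are of cytosines, so a CpG read on both strands was counted on each. Some regions, such as Mcm6 exon 10, therefore held only 2 CpG sites. Mean modification of each region was then compared in the lactose-free mice with exact permutation tests (two-sided, Benjamini-Hochberg adjusted over all regions and pairs of segments).

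Between segments 3 and 8, 21 of the 29 regions (72.4%) passed an adjusted p of 0.05, 16 higher and 5 lower in segment 8. At the Lct–Mcm6 locus 12 of 14 passed, 11 higher and 1 lower. In 6 of 29 regions (20.7%) no sample of 1 segment reached into the range of the other. These were Lct exon 7, Mcm6 intron 16, Mcm6 exon 10, Mcm6 intron 6, Mest intron 1 and the Plagl1 upstream region, most of them regions with small differences but little spread. Without segment 3 replicates 4 and 5, left out for values near segment 8, 24 regions passed, 18 of them higher in segment 8. This removal by itself tends to raise the count.

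The largest difference was at Mcm6 exon 13–intron 13 (18 CpGs, chr1:128337771-128338385), centred at -9760 bp from the Lct start, where negative is upstream. Segment 1 samples ran from 37.1% to 52.2% (median 45.6%). Segment 3 samples were at 30.3%, 33.6%, 31.2%, 66.1%, 51.2% and 36.9% for replicates 1 to 6, so 4 lay close together and replicates 4 and 5 lay well above them. Segment 4 samples were spread from 32.3% to 62.6% (median 52.98%), those of segment 7 from 51.5% to 69.4% (median 59.5%) and those of segment 8 from 64.7% to 80.7% (median 74.0%). In segment 4 the lane 5 samples ran from 32.3% to 45.7% (n = 2) and the lane 3 samples from 49.5% to 62.6% (n = 5). Replicate 4 of segment 3 reached the lower end of segment 8, and all other segment 3 samples lay below it.

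At Mcm6 exon 13–intron 13 segment 3 had a mean of 41.5% ± 14.3 (SD, n = 6) and segment 8 one of 73.2% ± 5.70 (SD, n = 7), a rise of 31.7 percentage points (exact permutation test, adjusted p = 0.00845). Without segment 3 replicates 4 and 5, picked for lying near segment 8, the difference was 40.3 points (adjusted p = 0.0120, exact test over the regions). Lane 6 held neither of these replicates. On lane 6 alone, segment 3 samples lay between 31.2% and 36.9% (n = 3) and segment 8 samples between 74.0% and 80.7% (n = 4), a difference of 43.1 points. It was 15.6 points on lane 1, with 1 sample a segment, and 2.92 points on lane 7, where segment 3 was replicate 4 alone. Segment 7 already stood 18.8 points above segment 3 (adjusted p = 0.0483, exact test), and segment 8 stood another 12.9 points above segment 7 (adjusted p = 0.0161, exact test). Segments 1 and 3 differed by -3.35 points (3 minus 1, exact test, adjusted p = 0.673), so the test did not separate them.

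**Figure D1:**
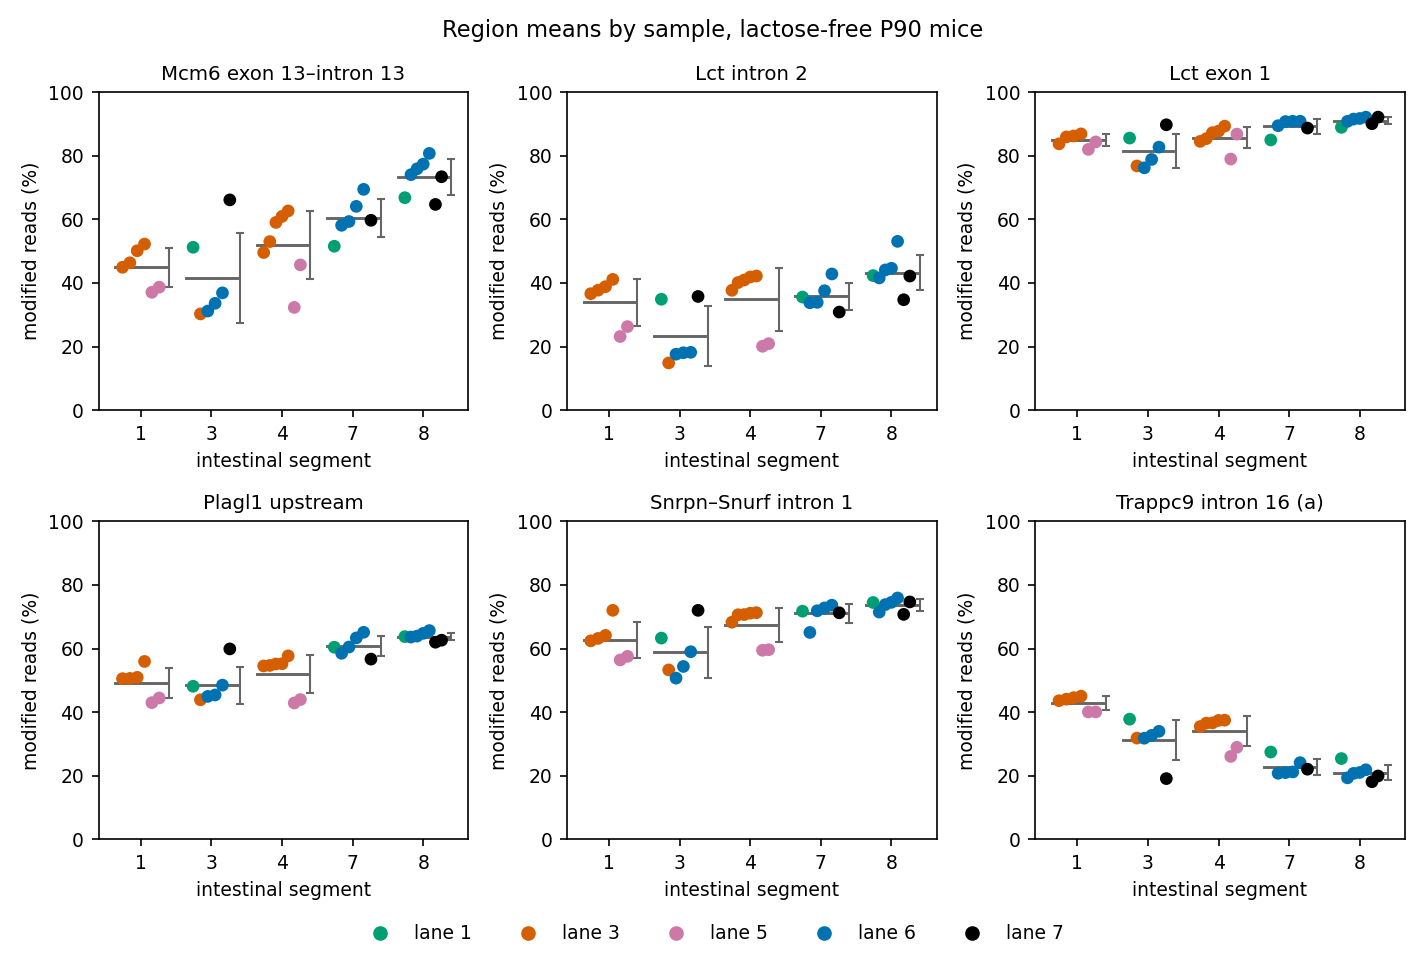
Percent of modified reads in each lactose-free sample (points, coloured by sequencing lane) and the mean of each segment (line, with its SD as a bar) for the regions named in the panels, by gut segment. Segment 8 lay highest at Mcm6 exon 13–intron 13 (64.7% to 80.7%), while segment 3 replicate 4 sat at 66.1%, apart from the other segment 3 samples.

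Within Lct, intron 2 changed most. This region (6 CpGs, chr1:128314519-128314931) lies 13593 bp downstream of the Lct start. Segment 3 samples ran from 14.8% to 35.7% (median 18.1%), with replicates 4 and 5 at 35.7% and 34.9% and no other above 18.2%. Segment 8 samples ran from 34.7% to 53.1% (median 42.3%). Both of these replicates lay just inside the lower end of the segment 8 range and the other 4 lay below it. The mean rose from 23.2% ± 9.45 (SD, n = 6) to 43.2% ± 5.42 (n = 7), by 20 points (exact permutation test, adjusted p = 0.00966). Without replicates 4 and 5 the rise was 26.04 points, and on lane 6 alone, which held neither, 27.9 points. Segments 1, 4 and 7 had similar means of 33.9%, 34.8% and 35.7%, so the mean of segment 3 was lowest and that of segment 8 highest. The lanes differed within segments 1 and 4. Segment 1 had means of 38.55% on lane 3 and 24.7% on lane 5, and segment 4 had 40.54% and 20.49%. Lane and segment cannot be told apart where segments 1 and 4 are set against segment 3. Segment 8 exceeded segment 7 by 7.48 points (exact permutation test, adjusted p = 0.0402).

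Lct exon 1, where transcription starts, was highly modified throughout its region (6 CpGs, chr1:128327865-128328160). Segment 3 samples ran from 76.2% to 89.7% (median 80.7%) and segment 8 samples from 88.9% to 92.1% (median 91.5%), with only replicate 4 of segment 3 inside the segment 8 range. The mean was 9.40 points higher in segment 8 (91.0% ± 1.19, n = 7, against 81.6% ± 5.34, n = 6, SD; exact permutation test, adjusted p = 0.00845), and 12.4 points higher without replicates 4 and 5. Segment 7 lay at 89.2% ± 2.28 (SD, n = 6), 7.61 points above segment 3 (exact test, adjusted p = 0.0369).

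The other regions of the locus moved less. Lct exon 9 with its flanking introns (14 CpGs, chr1:128297847-128298853) rose from 68.2% ± 4.16 (n = 6) to 77.3% ± 1.54 (n = 7, SD), by 9.10 points, and segment 7 with 75.96% was already 7.79 points above segment 3 (exact tests, adjusted p = 0.00845 and 0.0205). Lct intron 3, Mcm6 intron 6, Lct exon 7 and Lct exon 12 rose by 5.52, 5.30, 3.53 and 3.32 points. Mcm6 exon 10, exon 4 and intron 16 rose by 2.32, 2.25 and 2.10 points. All 7 passed the adjusted threshold in the exact test, with adjusted p from 0.00604 to 0.0358.

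The exception in direction was the stretch just downstream of the last Lct exon (4 CpGs, chr1:128284599-128284688). It fell by 1.99 points, from 80.8% ± 0.832 (n = 6) in segment 3 to 78.8% ± 1.47 (n = 7, SD) in segment 8 (exact permutation test, adjusted p = 0.0406). Lct exon 8 and Lct intron 9 did not pass, with differences of -0.3995 and -0.945 points (exact tests, adjusted p = 0.754 and 0.40). Their CpGs had medians of 4280 and 7485 reads per sample.

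The path along the gut was not a simple slope from end to end. The means were in rising order over segments 3, 4, 7 and 8 in 11 of 29 regions, 7 of them at the locus, and over segments 3, 7 and 8, which shared lanes, in 17 of 29. Segment 8 had the highest mean of the 5 segments in 16 regions, while the lowest was in segment 1 in 12 and in segment 3 in 10. At Mcm6 exon 4, for example, segment 1 had 77.6% ± 2.06 (SD, n = 6) and segment 3 had 84.4% ± 1.85 (n = 6), a rise of 6.79 points (exact test, adjusted p = 0.00966) beside the 2.25 points from segment 3 to segment 8. At Mcm6 exon 13 and Lct intron 2, segment 3 was below segment 1 instead. Segments 1 and 3 shared only lane 3, with 1 segment 3 sample, so lane and segment cannot be told apart in these steps. A permutation test over all 5 segments passed in 28 of 29 regions, the exception being Lct intron 9 (adjusted p = 0.213, permutation test). It does not separate lane from segment, because segments 1 and 4 ran on other lanes than nearly all other samples.

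**Figure D2:**
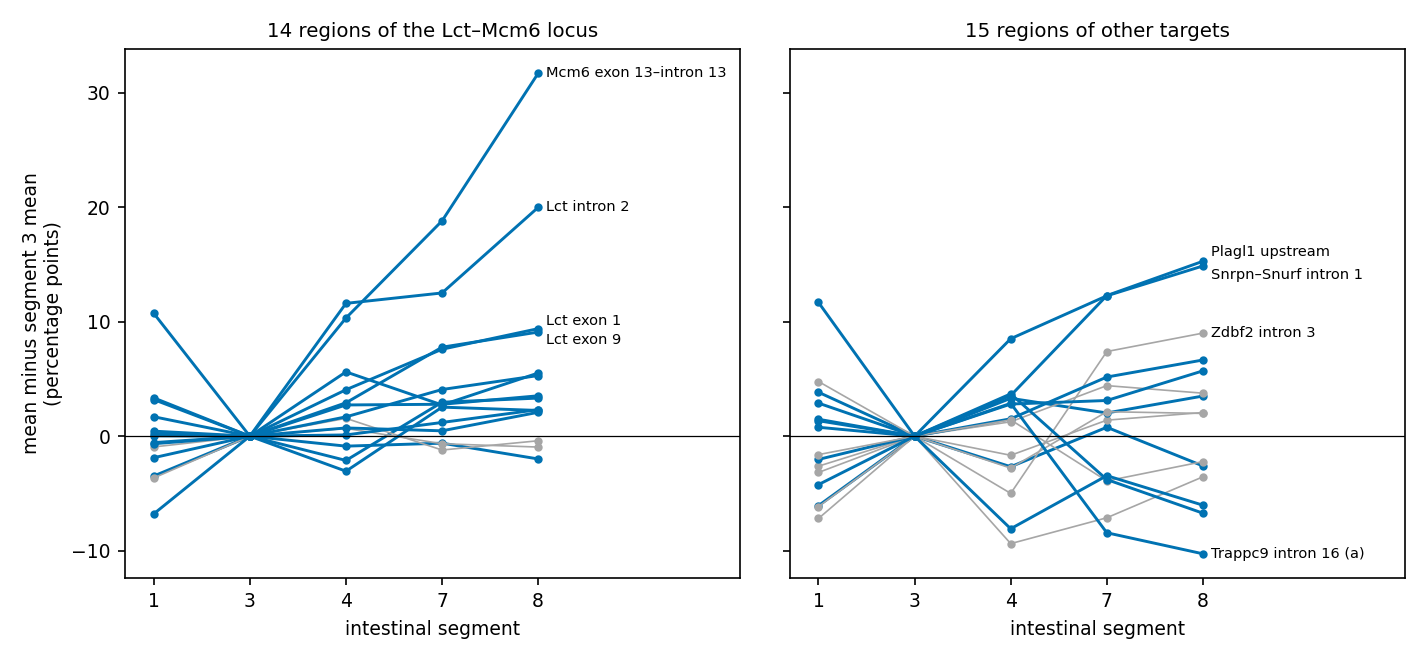
Mean of each region in segments 1, 4, 7 and 8 minus its segment 3 mean, in percentage points, for the 14 regions of the locus (left) and the 15 elsewhere (right). Blue lines passed the exact test between segments 3 and 8 and grey lines did not, and Mcm6 exon 13–intron 13 ended 31.7 points above segment 3 while Trappc9 intron 16 (a) ended 10.3 points below it.

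The order of segments was also read within lane 6. Segment 3 replicates 4 (lane 7) and 5 (lane 1) were not on lane 6, so the counts there share the limit of leaving those samples out. On lane 6, which held 3 samples of segment 3 and 4 each of segments 7 and 8, all 29 regions went from segment 3 to segment 8 in the same direction as in all samples. The samples of segments 3 and 8 did not overlap in 24 of 29 regions (82.8%), those of segments 3 and 7 in 21 (72.4%), and those of segments 7 and 8 in 2 (6.9%), Mcm6 exon 13–intron 13 and Trappc9 intron 16 (c). With 3 samples against 4 the smallest exact p is 0.0286, and after adjustment none passed, the lowest adjusted p of these exact tests being 0.0605.

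Single CpGs were then tested across all targets, on the read counts, with a quasi-binomial F test. Between segments 3 and 8, 1508 CpGs could be tested, 649 at the locus and 859 elsewhere. By Bonferroni at 0.01, 3 passed (0.199%), all higher in segment 8. By Benjamini-Hochberg at 0.05, 102 passed (6.76%), 89 higher (5.9%) and 13 lower (0.862%) in segment 8. At the locus 53 of 649 passed the latter (8.17%), and 52 of these were higher in segment 8. The differences of the 102 ran from 1.46 to 46.7 points in size (median 12.9), and 77 of them lay in the regions described above.

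The count depended on single samples, in both directions. With 1 sample left out, the Bonferroni count was 0 or 1, with none of the 3 shared, for 11 of the 13 samples, and 2, both shared, without segment 3 replicate 1. The Benjamini-Hochberg count was 61 without segment 8 replicate 2, the lowest. Without segment 3 replicate 4, 16 CpGs passed Bonferroni and 153 passed Benjamini-Hochberg (10.2%), 35 of them lower in segment 8 and 96 of them among the 102. Without replicates 4 and 5, 30 passed Bonferroni (2.03%), 28 higher in segment 8, and 150 passed Benjamini-Hochberg (10.2%), 33 of them lower. On lane 6 alone, which held neither replicate, 3 passed Bonferroni (0.208%) and 97 Benjamini-Hochberg (6.73%).

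The 3 Bonferroni calls were in different genes. The CpG in Mcm6 intron 6 at chr1:128348622, read on the minus strand, ran from 42.7% to 61.6% in segment 3 (median 50.98%) and from 66.7% to 71.9% in segment 8 (median 69.4%), so no samples overlapped. Its mean rose by 17.8 points, from 51.3% to 69.1%, with segments 1, 4 and 7 at 56.6%, 61.99% and 65.5% (exact permutation test of segments 3 and 8, unadjusted p = 0.000583, and Bonferroni p of the F test 0.00779). The partner cytosine on the plus strand, 1 base away, went from 49.5% to 64.6%. The CpG upstream of Plagl1 at chr10:13089855 rose from 64.7% to 81.1% (exact permutation test, unadjusted p = 0.000583, and Bonferroni p of the F test 0.00704). The CpG in Mest intron 1 at chr6:30739965 rose from 69.8% to 79.7% (exact permutation test, unadjusted p = 0.000583, and Bonferroni p of the F test 0.00886) and was the last inside the threshold. The first outside it was another Plagl1 CpG, chr10:13089912, with 46.7% in segment 3 and 66.2% in segment 8 (exact permutation test, unadjusted p = 0.000583, and Bonferroni p of the F test 0.0144). With 6 and 7 samples, 0.000583 is the smallest p this exact test can give.

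By gene, 12.9% of the CpGs of Mcm6 (26 called) and 27 of 345 of Lct (7.83%) passed Benjamini-Hochberg. The share was 6.76% over all tested CpGs and 8.17% over the locus, so that of Lct lay near both. Of the others, 0 of 31 passed in Ubxn4, 0 of 14 in Dars and 0 of 57 between genes. Of these 57, 30 lay in the Mcm6 island at 1.44% to 2.07%, and those of Dars had segment means of 87.1% to 92.5%. Calls at the locus were few below 10% and above 90%. Ubxn4 and Dars flank the pair and encode an adaptor of protein degradation and an aspartyl-tRNA synthetase. All 26 Mcm6 calls and 26 of the 27 in Lct were higher in segment 8. The 1 lower was in Lct intron 6 (chr1:128305181), named after its value was seen, which went from 49.1% in segment 3 to 40.4% in segment 8 (exact permutation test, unadjusted p = 0.00699, and Benjamini-Hochberg p of the F test 0.0436). Its means in segments 1, 4 and 7 were 54.1%, 43.6% and 41.0%, a fall along the gut where most called CpGs rose. Lane and segment cannot be told apart in the steps to and from segments 1 and 4.

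**Figure D3:**
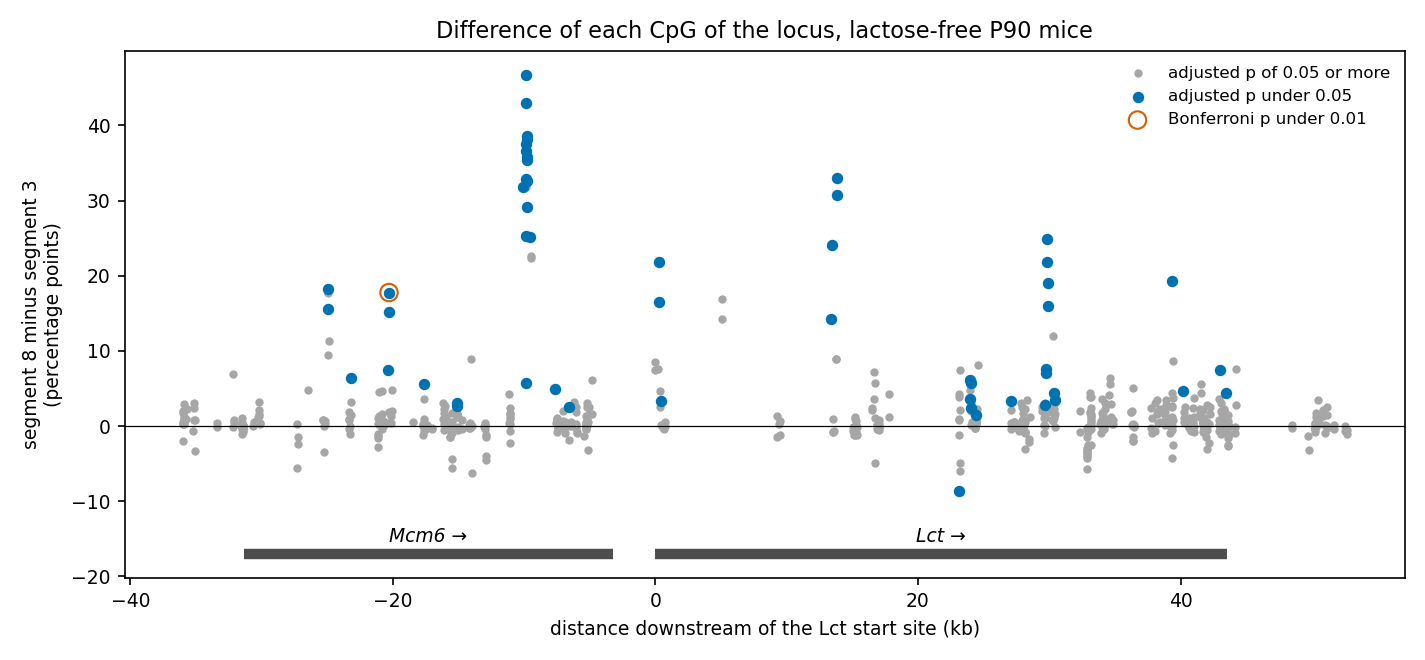
Difference in percent modification, segment 8 minus segment 3, for each of the 649 tested CpGs of the locus against distance from the Lct start, with CpGs past Benjamini-Hochberg 0.05 in blue, those past Bonferroni 0.01 ringed in orange, and the gene models below. Most CpGs lie near 0 (median difference 0.516 points), and the highest group, up to 46.7 points, is at Mcm6 exon 13–intron 13.

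Many of the calls in Mcm6 were bunched. In exon 13, 11 of 12 cytosines passed, with a median difference of 36.2 points, and in intron 13, 4 of 7 passed with a median of 22.6. The 1 cytosine tested in intron 12 also passed, with a difference of 31.8 points. The 2 strands of a CpG are counted apart here and do not give independent support. In exons 12 and 14, on either side of exon 13, 0 of 10 and 0 of 10 passed, and levels stayed between 84.4% and 92.3% in every segment mean. The other Mcm6 calls lay in intron 6 (3 of 5), intron 3 (2 of 5, median difference 15.6 points) and exon 10 (2 of 6). Exons 4, 8 and 15 held 1 each. The CpG island before the Mcm6 start was unmodified in all segments, at 1.44% to 2.07% over 30 CpGs, none of which passed.

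The exon 13–intron 13 region held 18 cytosines at 10 CpG sites. All 18 were higher in segment 8, by 5.76 to 46.7 points (median 32.7), and 15 passed. The lead was chr1:128338194 on the plus strand, near the 3′ end of the printed sequence. Its segment 3 samples ran from 21.1% to 68.2% (median 24.8%) and its segment 8 samples from 73.3% to 86.7% (median 80.9%), without overlap. Without replicates 4 and 5 the highest of segment 3 was 25.2% and the difference 57.2 points. The means from segment 1 to segment 8 were 38.8%, 33.6%, 39.6%, 67.8% and 80.4% (segments 3 and 8, exact permutation test, unadjusted p = 0.000583, and Benjamini-Hochberg p of the F test 0.00546). The largest step between successive means lay between segments 4 and 7, which ran on different lanes, so lane and segment cannot be told apart there.

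The strands of that CpG did not read alike. The minus-strand cytosine, chr1:128338195, was at 3.65%, 3.48%, 4.13%, 7.62% and 9.23% in the same order of segments, far below the plus strand but with the same order from segment 3 to segment 8. At the other 7 CpGs of the region with both strands covered, the strands lay within 17.1 points of each other in every segment mean. Over the locus, 506 cytosines belonged to CpGs with both strands tested. The differences between segments correlated at r = 0.861 across these CpGs, which share libraries and probes and are not independent, and of the 27 with a strand called, 24 had the same sign on both.

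Neighbouring CpGs also had different levels. At chr1:128338093, in intron 13 beside the exon, modification was 22.4% in segment 3 and 51.5% in segment 8, while at chr1:128338177 in exon 13 it was 66.2% and 91.5%. The differences between segments 8 and 3 were 29.2 and 25.3 points, at levels that differed by position.

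**Figure D4:**
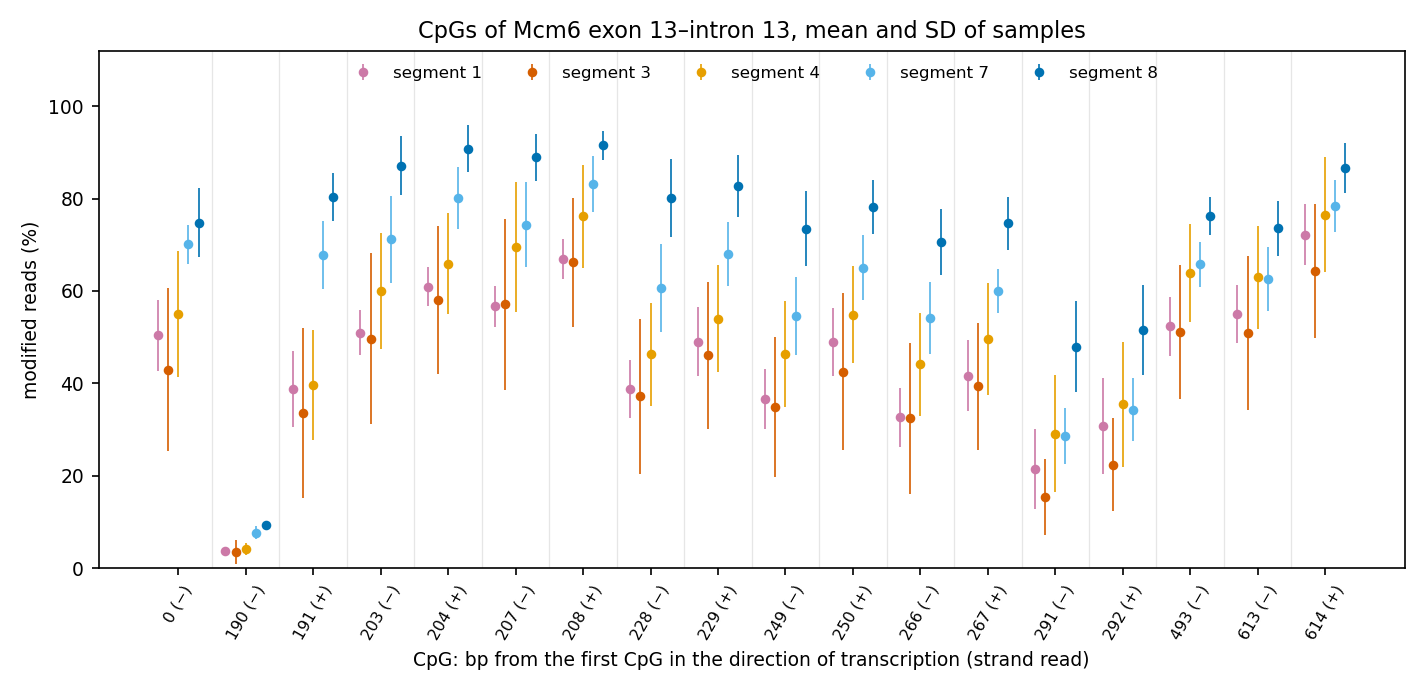
Mean and SD of percent modification in each segment at the 18 cytosines (10 CpG sites) of Mcm6 exon 13–intron 13, in order of transcription, with the strand read in brackets. Segment 8 is highest at every CpG, and the minus-strand cytosine of the lead CpG is low in all segments (3.48% to 9.23%).

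In Lct intron 2, 4 of 6 CpGs passed, and the lead, chr1:128314520 on the minus strand, went from 30.1% ± 15.6 in segment 3 to 63.2% ± 6.12 in segment 8 (SD), with 51.5% in segment 7 (segments 3 and 8, exact permutation test, unadjusted p = 0.00117, and Benjamini-Hochberg p of the F test 0.0183). Without replicates 4 and 5 segment 3 had 20.4% ± 2.11 (SD, n = 4) and the difference was 42.8 points. The other CpG of the printed sequence, chr1:128314548, behaved differently, at 23.8%, 11.9%, 25.2%, 14.8% and 20.8% in segments 1, 3, 4, 7 and 8, a pattern with no steady rise. In Lct exon 1, 3 of 6 passed, led by chr1:128328060 (minus strand), which ran from 64.9% to 86.4% in segment 3 (median 70.4%) and from 86.8% to 91.9% in segment 8 (median 89.5%). In the Lct exon 9 region the lead was in intron 9, chr1:128298439, with 34.9%, 28.9%, 38.8%, 43.8% and 47.9% from segment 1 to 8 (segments 3 and 8, exact permutation test, unadjusted p = 0.000583, and Benjamini-Hochberg p of the F test 0.00546).

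Calls were more frequent at middle levels. Of locus CpGs with a mean between 10% and 90%, 49 passed Benjamini-Hochberg (17.8%), against 3 of 321 above 90% (0.935%) and 1 of 52 below 10% (1.92%).

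Across all 5 segments, 1490 CpGs were tested and 104 (6.98%) passed Bonferroni at 0.01, 49 at the locus, of which 33 were in Lct and 12 in Mcm6. By Benjamini-Hochberg at 0.05, 645 passed (43.3%). This test cannot tell lane from segment where segments 1 and 4 enter, and with lane as a covariate 49 passed Bonferroni.

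Segments 1 and 4 shared lanes 3 and 5. There, 1 of 1576 CpGs passed Bonferroni (0.0635%) and 78 passed Benjamini-Hochberg (4.95%), 25 higher (1.59%) and 53 lower (3.36%) in segment 4. The 1 was chr15:72801572 in Trappc9 intron 16, at 56.1% to 58.8% in segment 1 (median 57.4%) and 33.4% to 41.96% in segment 4 (median 40.2%), with no overlap (exact permutation test, unadjusted p = 0.000583, and Bonferroni p of the F test 1.62e-05). The next was between Dlk1 and Meg3 (chr12:109527894), with 83.3% in segment 1 and 75.3% in segment 4, and the third was in Lct exon 8 (chr1:128299898), with 81.4% and 87.5%. Both had an unadjusted p of 0.000583 in the exact permutation test and missed Bonferroni by the F test, at 0.0257 and 0.0366. Of regions, 7 of 29 passed between these segments (24.1%), 5 higher and 2 lower in segment 4. Among them were Lct exon 8, higher by 5.20 points, and Mcm6 exon 4, higher by 3.73 points (exact permutation tests, adjusted p = 0.0231 and 0.0287).

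Between segments 3 and 7, 0 of 1490 CpGs passed Bonferroni by the F test and 0 by limma. At an unadjusted p under 0.05 there were 17.1% of the CpGs, and 13 passed Benjamini-Hochberg (0.872%), 12 of them higher in segment 7 (0.805%). Without segment 3 replicate 4, 6 passed Bonferroni (0.403%) and 86 passed Benjamini-Hochberg (5.77%), and without replicates 4 and 5, 5 (0.339%) and 88 (5.96%) passed. The regions gave 14 of 29 past the threshold (48.3%), 11 higher and 3 lower in segment 7. The lowest p among CpGs was at chr12:109526921 between Dlk1 and Meg3, with 92.7% in segment 3 and 89.2% in segment 7 (exact permutation test, unadjusted p = 0.00216, and Bonferroni p of the F test 0.0834). The Plagl1 CpG chr10:13089855 followed, and then a CpG in intron 1 of Grb10, chr11:12025014, which went from 59.3% to 65.3%. Grb10 encodes an adaptor that dampens insulin signalling.

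Segments 7 and 8 lie next to each other in the ileum. Of 1503 CpGs, 0 passed Bonferroni or Benjamini-Hochberg by the F test, 0 passed by limma, and 88 (5.85%) had an unadjusted p under 0.05. The 3 lowest p were at Trappc9 intron 16 (chr15:72801816, 67.4% to 61.1%), Ubxn4 exon 13 (chr1:128278091, 96.5% to 95.2%) and Mcm6 exon 13 (chr1:128338118, 60.0% to 74.7%). As regions, 5 of 29 passed (17.2%). Higher in segment 8 were Lct intron 3 (by 2.79 points), Lct intron 2 (by 7.48) and Mcm6 exon 13–intron 13 (by 12.9), and lower were Trappc9 intron 16 (c) by 2.58 points and region (a) near Gm11608, a predicted gene in the Zdbf2 domain, by 3.38 points.

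The remaining pairs are given as counts. Segments 1 and 3, and segments 3 and 4, had 0 CpGs past either correction in 1510 and 1512 tested, with 17% and 23.1% at an unadjusted p under 0.05 by the F test, which was the only tool run on them. Segments 1 and 7, 1 and 8, 4 and 7, and 4 and 8 had 21 (1.4%), 43 (2.8%), 3 (0.2%) and 11 (0.716%) past Bonferroni. By Benjamini-Hochberg these pairs had 318 (21.2%), 370 (24.1%), 330 (22%) and 406 (26.4%). These pairs shared no lane except for 1 segment 3 sample on lane 3, so lane and segment cannot be told apart in them.

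Outside the locus, 49 of 859 CpGs passed Benjamini-Hochberg between segments 3 and 8 (5.7%), 37 higher and 12 lower in segment 8. They were not evenly spread. Upstream of Plagl1, an imprinted zinc finger gene that slows cell growth, 7 of 8 passed, all higher in segment 8, against 0 of 5 in its intron 1. At Snrpn and Snurf, paternally expressed genes of the Prader–Willi domain, 10 of 35 passed, all higher. At Trappc9 and the noncoding Peg13 inside it, 7 of 81 passed, all lower, and between Dlk1 and Meg3 5 were higher and 4 lower of 74. No CpG passed at H19 (59 tested), Slc38a4 (29), Commd1 (20), Herc3 (18) or Igf2r (16), and 1 passed at Gnas (0.862%).

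The Plagl1 upstream region (7 CpGs, chr10:13089855-13090269) lies before the start of the longest basic Plagl1 transcript and inside the span of a partial longer one. Segment 3 samples ran from 43.9% to 59.9% (median 46.8%), with replicate 4 at the top and the next at 48.5%. Segment 8 samples ran from 61.99% to 65.7% (median 63.8%), above all of segment 3. The rise was 15.3 points (48.5% ± 5.88, n = 6, to 63.8% ± 1.23, n = 7, SD; exact permutation test, adjusted p = 0.00604), and segment 7 was already 12.3 points above segment 3. All 7 CpGs rose, by 10.6 to 19.6 points. On lane 6 alone, which did not hold replicate 4, the rise was 18.2 points.

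In the Snrpn–Snurf domain, in a stretch that the annotation used here names intron 1 of Gm38393 (10 CpGs, chr7:60002806-60003295), the rise was 14.9 points, from 58.8% ± 7.88 (n = 6) to 73.7% ± 1.86 (n = 7, SD; exact permutation test, adjusted p = 0.00966). Segment 3 samples ran from 50.7% to 72.01% (median 56.7%) and reached into the segment 8 range of 70.8% to 75.9%, replicate 4 being the highest. Without replicates 4 and 5 the rise was 19.3 points (exact test, adjusted p = 0.0120). Mest, a paternally expressed gene for a hydrolase-like protein, rose in intron 1 by 6.66 points without overlap, from 52.7% to 61.8% in segment 3 to 63.4% to 66.1% in segment 8. Usp29 intron 1, in the Peg3 domain, rose by 5.71 points. Zdbf2 intron 3 was 9.01 points higher in segment 8 and did not pass (exact test, adjusted p = 0.0588). Without segment 3 replicates 4 and 5, picked for lying near segment 8, the difference was 13.3 points (adjusted p = 0.0120, exact test).

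Of the 5 regions that fell, 3 were in intron 16 of Trappc9. The others were the stretch downstream of Lct and region (a) near Gm11608 (7 CpGs, chr1:63253019-63253457), which fell by 2.60 points, from 40.3% ± 1.46 (n = 6) to 37.7% ± 1.25 (n = 7, SD; exact permutation test, adjusted p = 0.0249). Trappc9 encodes a subunit of a vesicle tethering complex. In region (a), chr15:72801572-72802305, segment 1 samples were highest at 40.1% to 45.04% (median 43.9%). Segment 3 samples ran from 19.1% to 37.8% (median 32.3%), with replicate 4 alone below 31.8%, segment 4 samples from 26.1% to 37.5%, segment 7 samples from 20.8% to 27.5% and segment 8 samples from 18.1% to 25.4% (median 20.8%). Only replicate 4 of segment 3 fell within the segment 8 range. The mean fell by 10.3 points from segment 3 to segment 8 (31.2% ± 6.33, n = 6, to 20.9% ± 2.32, n = 7, SD; exact permutation test, adjusted p = 0.0205), and by 11.7 points without replicates 4 and 5.

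The lead CpG of Trappc9 region (a), chr15:72801841 on the minus strand, had lower means in each successive segment, 76.8%, 70.4%, 65.9%, 56.3% and 46.2% in segments 1, 3, 4, 7 and 8. Lane and segment cannot be told apart in the steps to and from segments 1 and 4. Region (b), chr15:72804022-72804540, fell by 6.74 points from segment 3 to segment 8, and region (c), chr15:72808317-72808370, which lies inside Peg13, fell by 6.03 points (exact permutation tests, adjusted p = 0.0183 and 0.00966). Between Dlk1 and Meg3, regions (a) and (b) were 2.22 and 3.54 points lower in segment 8 and did not pass (exact tests, adjusted p = 0.144 and 0.201). Without segment 3 replicates 4 and 5, picked for lying near segment 8, region (a) fell by 3.04 points (exact test, adjusted p = 0.0306). Replicate 5, at 78.2%, lay away from segment 8 in this region. Region (a) held a CpG against that direction, chr12:109526114, which went from 14.3% to 33.4% (exact permutation test, unadjusted p = 0.00175, and Benjamini-Hochberg p of the F test 0.00655), with a read depth of 131 to 1453.

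Last, the difference between segments 3 and 8 was set beside that of the other adult groups, whose samples of these segments lay on lanes 5, 6 and 7 (P60) and on lanes 1 and 2 (lactose-fed). Lane and milk type therefore cannot be told apart. By direction, all 29 regions went the same way in P60 mice, from whose samples the regions were chosen, and 28 of 29 in lactose-fed P90 mice. The exception was Dlk1–Meg3 region (b), where the lactose-fed difference was 0.942 points. The lactose-free difference was larger in size than the lactose-fed one in 20 of 29 regions, and larger than the P60 one in 6. Without segment 3 replicates 4 and 5 these counts were 24 and 17, so the order against P60 mice depended on those samples. They were removed from the lactose-free group alone, for lying near segment 8. The counts of 24 and 17 therefore do not compare the groups on equal terms. At Mcm6 exon 13–intron 13, segments 3 and 8 had 33.9% ± 3.89 and 73.3% ± 6.45 (SD, n = 8 each) in P60 mice, a difference of 39.4 points. In lactose-fed mice they had 50.7% ± 20.7 and 73.9% ± 5.72 (SD, n = 7 each), a difference of 23.1 points. The lactose-free difference was 31.7 points, or 40.3 points without replicates 4 and 5. The segment 8 means of the 3 groups lay within 1 point of each other, and the wider spread was in segment 3 of both milk groups.

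None of these contrasts between groups passed a test. The interaction of segment and group gave 0 of 1499 CpGs against P60 mice and 0 of 1508 against lactose-fed mice by Bonferroni and by Benjamini-Hochberg (quasi-binomial F test), with 106 (7.07%) and 32 (2.12%) at an unadjusted p under 0.05. Both counts past Bonferroni were also 0 without segment 3 replicates 4 and 5. For regions, 0 of 58 interactions passed. The lowest unadjusted p was 0.0219 (permutation test within segments, Lct exon 8 against P60), and its adjusted p was 0.924. The difference at Mcm6 exon 13–intron 13 was 7.7 points smaller than in P60 mice (unadjusted permutation p = 0.237) and 8.58 points larger than in lactose-fed mice (unadjusted permutation p = 0.425). A missed threshold does not show that the groups were alike.

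**Figure D5:**
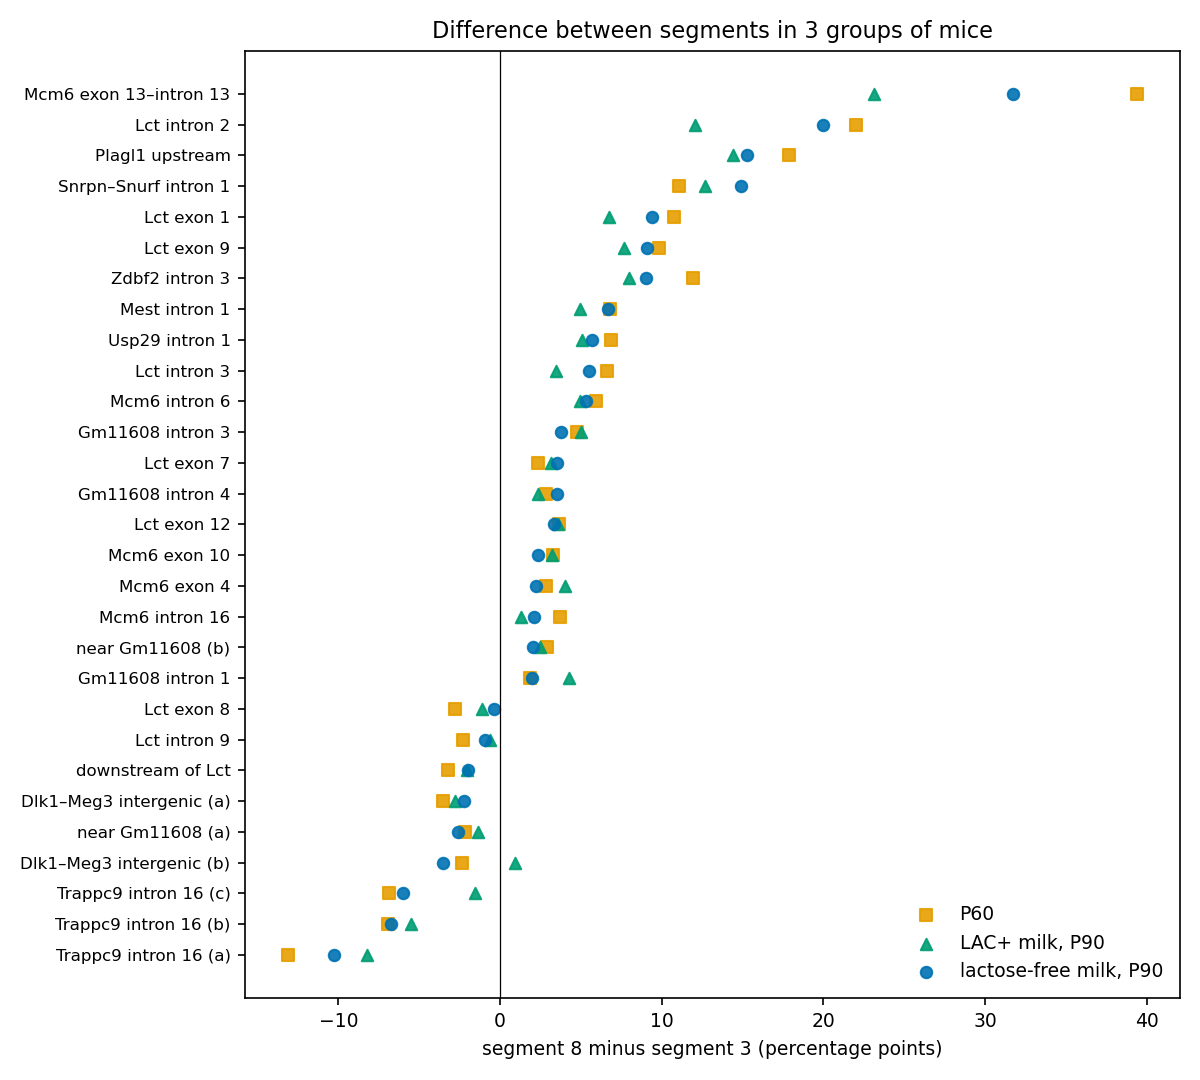
Difference between segments 8 and 3 in percentage points for each of the 29 regions in lactose-free P90, lactose-fed P90 and P60 mice. The 3 groups lie on the same side of 0 in all regions except Dlk1–Meg3 (b), and at Mcm6 exon 13–intron 13 they stand at 31.7, 23.1 and 39.4 points.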

How the data were processed

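The authors deposited, for each sample, the counts of modified and unmodified reads at every cytosine that the bisulfite padlock probes covered. The submitters' processing notes name Trimmomatic 0.32, Bismark and the mouse build GRCm38 (mm10). Percent modification was computed as modified reads over all reads at CpGs with more than 30 reads. P-values measure the spread between samples. All members and lists were chosen with earlier results of these data known.

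CpGs with enough reads in at least 3 samples of each segment were tested by the F statistic of a quasi-binomial fit to the read numbers (Python 3.11.15, SciPy 1.17.1), corrected by Bonferroni at 0.01 as in the study, over all CpGs tested. Benjamini-Hochberg at 0.05 was an alternative. Regions were clusters found in P60 samples and were compared by exact permutation tests on sample means. Interactions of regions and the test over 5 segments used 100000 permutations. The F test was tried on simulated data, where it was somewhat liberal before correction, so lists by Benjamini-Hochberg may hold more false calls than their nominal rate. Named CpGs were also given exact permutation tests on sample percentages, an addition made after the results were seen. Genes follow the longest GENCODE M21 basic transcript of each gene, and sequences are from RefSeq GRCm38.p6.

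Named CpGs were the lowest p in each region, those beside the threshold, up to 5 called CpGs of other targets, and the 3 lowest p for segments 1 and 4, 3 and 7, and 7 and 8. CpGs of Mcm6 exon 13 and Lct intron 2 shown for their position or strand, and those counted by gene, were chosen after their values were seen. Alternatives were other read minimums (10 and 100), limma 3.58.1 (R 4.3.3) on log2 odds with a pseudocount of 0.5 reads, lane as a covariate, replicate blocks, correction over CpGs and other cytosines, single lanes, and leaving out samples. Lanes and a number that may stand for the mouse were read from the deposited file names. The 10 P6 samples were not used.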

Additional observations from a re-analysis of the deposited data

Results flagged for a closer look

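In 12 of 145 groups of region values (29 regions in 5 segments), 1 sample lay far from the others of its segment by Dixon's criterion at the 95% level. Chance flags about 1 in 20 groups. Of these, 3 were replicate 4 of segment 3: it was at 59.9% upstream of Plagl1, where the next highest sample was at 48.5%, at 19.1% in Trappc9 intron 16 (a), where the next lowest was at 31.8%, and at 71.3% in Dlk1–Meg3 region (a), where the next lowest was at 75.95%. In each case the sample lay on the side of segment 8. Replicate 1 of segment 3 was low at Mcm6 intron 16 (84.9%, next 86.3%).

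In segment 7, replicate 5 was lowest at Lct exon 1 (84.9%, next 88.7%) and at Lct exon 12 (84.5%, next 86.6%), replicate 1 at Gm38393 intron 1 in the Snrpn–Snurf domain (65.1%, next 71.2%), and replicate 3 was highest downstream of Lct (83.2%, next 79.95%). In segment 8, replicate 3 was highest at Mest intron 1 (66.1%, next 63.9%), replicate 4 was highest at Zdbf2 intron 3 (65.7%, next 56.6%) and replicate 6 was lowest at Mcm6 exon 4 (84.97%, next 86.5%). In segment 4, replicate 4 was lowest at Mcm6 exon 10 (83.4%, next 86.1%).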

How the results depend on the processing

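Between segments 3 and 8 the Bonferroni count of 3 depended on the settings. It was 102 by Benjamini-Hochberg, 0 with lane as a covariate, 0 over CpGs and other cytosines together and 0 on lanes 6 and 7 only. Leaving out single samples gave 0 to 16 by Bonferroni, with under 2 left after removing any sample other than segment 3 replicates 1 (2 left) and 4 (16 left). By Benjamini-Hochberg it ran from 61 (without segment 8 replicate 2) to 153. It was 30 without segment 3 replicates 4 and 5. The Benjamini-Hochberg count was 98 with lane (73 shared with the 102), 150 without those replicates, 153 without replicate 4 and 97 on lane 6 only. Read minimums of 10 and 100, limma, and the removal of CpGs above 90% kept the Bonferroni count within 1.5 times 3.

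For 5 segments the count of 104 was 645 by Benjamini-Hochberg, 49 with lane and 67 over CpGs and other cytosines. For segments 1 and 4 the count of 1 was 78 by Benjamini-Hochberg, 8 with lane, 181 with both, 2 on lane 3 only and 61 there by Benjamini-Hochberg. For segments 3 and 7 the count of 0 was 13 by Benjamini-Hochberg, 3 with lane as well, and, without replicates 4 and 5, 5 or, by Benjamini-Hochberg, 88, while without replicate 4 alone it was 6 or 86. For segments 7 and 8 it was 13 by Benjamini-Hochberg with lane. Benjamini-Hochberg gave 318, 370, 330 and 406 for segments 1 and 7, 1 and 8, 4 and 7, and 4 and 8.

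Samples of different segments share numbers in the labels and file names, and whether a number stands for a mouse is not stated. The deviations of same-numbered samples correlated at a mean r of -0.0104 (source names), -0.0109 (titles) and 0.180 (file names, over 0.1 in 31 of 58 pairs). For samples with different numbers the mean r was 0.00174, 0.00175 and -0.0297. Pairing by mouse through the file number therefore remains possible. With a replicate block, the count for segments 3 and 8 was 1, 1 and 0 by these numbers, 21 by Benjamini-Hochberg with the file number and 1 with the source number. The file number block gave 177 for the 5 segments and, by Benjamini-Hochberg, 22 for segments 1 and 4 (4 by source number), 2 for segments 3 and 7 and 13 for segments 7 and 8. In sign-flip tests within pairs, 0 regions passed by either number, where 6 pairs cannot give a p under 0.0313, though all 6 pairs had 1 sign in 19 of 29 regions.

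Of the regions, 19 to 25 passed when 1 sample was left out, against 21, and 0 on lane 6 only, where the lowest adjusted p of the exact permutation tests was 0.0605. The direction reversed only for Lct exon 8, which had not passed: 0.198 points with all covered CpGs in its span and 0.0484 on the minus strand, against -0.400. The interactions gave 0 CpGs in every setting run. Except where the construction shows it, the cause of a change was not tested. With 6 or 7 samples a segment, the spread between samples sets the precision, at a median dispersion of 5.78 times counting error between segments 3 and 8.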
